A study of Homo sapiens with 18 samples.

Results

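This account follows 53 genes of mitosis and of the G2/M transition, chosen by gene symbol from a list of cell-division genes, among the 58735 genes of a count table. All 53 symbols were found, and all 53 genes were among the 17409 that held enough reads to be tested. By role, 10 act in entry into mitosis, 8 are kinesin motors, 11 serve spindle assembly and the spindle poles, 12 belong to the centromere, kinetochore and spindle checkpoint, 3 trigger anaphase, 4 serve cytokinesis and 5 shape the chromosome.

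A cell enters mitosis when the kinase CDK1, bound to cyclin A2 or a B-type cyclin, is switched on by CDC25 phosphatases. Polo-like and Aurora kinases, kinesin motors and kinetochore proteins then build the spindle, and the anaphase-promoting complex with CDC20 destroys securin and cyclin B so that the sister chromatids part. Most of these genes are transcribed late in the cell cycle, and many of their promoters carry a short element called the cell-cycle genes homology region (CHR), which is read by the MuvB complex with B-MYB and FOXM1. Their RNA is widely used as a sign of dividing cells. When a sheet of keratinocytes is scratched, the cells at the edge move into the gap, and cell division adds cells behind them.

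RNA was sequenced from 2 lines of human keratinocytes: HaCaT, a spontaneously immortalised line from skin, and TIGK, a telomerase-immortalised line from gingiva (the gum). Each line was taken unscratched (0 h) and 6 h and 24 h after a scratch in the culture dish. This makes 6 groups of 3 libraries, and the labels name no other treatment. The study asked which expression differences accompany the better healing of oral cells, and compared HaCaT with TIGK at each time and each line with its own 0 h. Each tissue is represented by 1 line, so tissue and line cannot be told apart. An unscratched culture of 24 h is not among the groups, so the scratch itself and the passing hours cannot be told apart either.

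Libraries held 14238090 to 25011331 counted reads and are named here by line, time and the letter of their column. In 2 TIGK libraries, 0 h C and 6 h C, 26246 and 25161 genes had a read, against 21164 to 22799 in the rest, and these 2 held the lowest mitochondrial shares of reads, 5.08% and 4.98%. The 10 keratinocyte markers (KRT5, KRT14, TP63 and others) summed to 32807 to 43574 CPM per library, where CPM is a count relative to the TMM-scaled size of its library, and none was at 0 in any group. The 8 fibroblast markers summed to 21.0 to 40.8 CPM in HaCaT and to 237 to 435 CPM in TIGK. At 0 h, 6 h and 24 h, 3, 3 and 2 of the 8 were at 0 in HaCaT and 0, 1 and 2 in TIGK. Of the 5 tested, 4, 5 and 5 were called lower in HaCaT than in TIGK at these times. Of all genes tested, 32.8% to 33.3% were called lower. The melanocyte gene TYR was at 0 in all 6 groups, the 6 melanocyte markers summed to at most 27.7 CPM, the 5 immune markers to at most 0.957 CPM and the 4 endothelial markers to at most 8.15 CPM.

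HaCaT held more mitotic RNA than TIGK at each time, and the summed level was highest at 24 h in both lines. The 53 genes summed to 4357, 4420 and 4143 CPM in the 3 HaCaT libraries at 0 h, to 4268, 4402 and 4274 CPM at 6 h and to 5985, 5885 and 5950 CPM at 24 h. In TIGK they summed to 2292, 2227 and 2646 CPM at 0 h, to 2001, 2004 and 2246 CPM at 6 h and to 3955, 4648 and 3878 CPM at 24 h. The HaCaT libraries of 0 h and 6 h overlap each other and lie above all TIGK libraries of those times. Of the TIGK libraries at 24 h, 1 lies above every HaCaT library of 0 h and 6 h and the other 2 lie below them. As shares of all reads, the genes took 0.410% to 0.437% in HaCaT and 0.224% to 0.280% in TIGK at 0 h. In these bulk samples, fewer dividing cells and less mitotic RNA per dividing cell cannot be told apart.

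**Figure D1:**
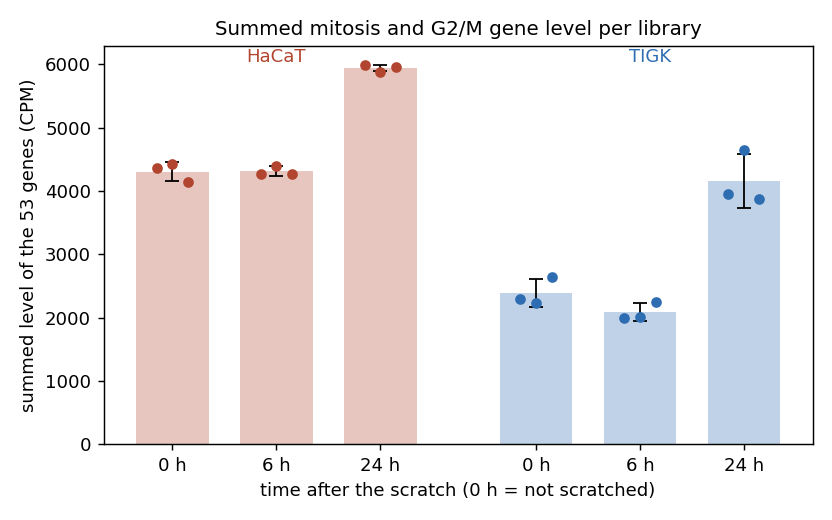
Summed level of the 53 mitosis and G2/M genes in CPM for HaCaT (red) and TIGK (blue) at 0 h, 6 h and 24 h; points are libraries, bars are means and whiskers are the SD of 3 libraries. The means are 4307, 4315 and 5940 CPM in HaCaT and 2388, 2084 and 4160 CPM in TIGK.

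The promoters of these genes share short sequence elements that many other promoters lack, which is why some are printed here. RefSeq promoter windows (GRCh38.p14, 250 bases before to 50 after the start) were matched by symbol for 45 of the 53 genes. The CHR core was searched as TTTGAA or TTCGAA on both strands (TTTGAA reads TTCAAA on the other strand and TTCGAA reads the same on both), and the CCAAT box as CCAAT on both strands; these motifs do not contain each other. A CHR core was present for 35 of the 45 genes (77.8%), against 19.5% of the 27305 genes with a window, and within 50 bases of the start for 62.2% against 6.24%. A CCAAT box was present for 77.8% against 39.7%, and both motifs for 64.4% against 7.85%. The genes had about as many windows each as the rest (1.24 against 1.29). A match describes the letters of the window only.
The whole window of CCNB2 (cyclin B2, a partner of CDK1) holds 4 CCAAT boxes and 1 CHR core, printed in capitals, with the core 29 bases before the start:
CCNB2 (chr15:59104896-59105195, + strand): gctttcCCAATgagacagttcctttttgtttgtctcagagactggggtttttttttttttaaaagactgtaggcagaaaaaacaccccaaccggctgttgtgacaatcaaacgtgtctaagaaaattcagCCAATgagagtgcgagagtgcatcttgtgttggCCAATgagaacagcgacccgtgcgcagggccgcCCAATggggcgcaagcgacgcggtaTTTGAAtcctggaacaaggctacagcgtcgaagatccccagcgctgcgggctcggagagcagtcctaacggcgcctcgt

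The core with up to 17 bases on either side, 5′ to 3′ on the gene's strand and with the core in capitals, is printed next for genes on which the later results turn. The stretch of HMMR also holds a second core, 22 bases before the start, left in lower case directly after the first. Further cores that are not printed lie 178 bases before the start in CDC20 and 138 and 109 bases before it in DLGAP5. The printed core of CDC25C lies 43 bases after the start in another window of that gene, and other windows of it hold none. The first 5 genes were called higher at 24 h in TIGK and not in HaCaT. They are the mitotic kinase gene PLK1 (core 29 bases before the start), the anaphase activator CDC20 (65 before), the centromeric histone CENPA (18 before), the checkpoint gene BUB1B (23 before) and the motor gene KIF23 (55 before):
PLK1 (chr16:23678843-23678882, + strand): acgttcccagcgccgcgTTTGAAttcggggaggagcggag
CDC20 (chr1:43358899-43358938, + strand): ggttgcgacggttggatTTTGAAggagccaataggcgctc
CENPA (chr2:26786021-26786060, + strand): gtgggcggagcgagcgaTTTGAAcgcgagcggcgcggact
BUB1B (chr15:40161029-40161068, + strand): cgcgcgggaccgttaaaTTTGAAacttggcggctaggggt
KIF23 (chr15:69414277-69414316, + strand): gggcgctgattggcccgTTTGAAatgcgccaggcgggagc
The next 4 were called higher at 24 h in both lines. They are CDC25C, a phosphatase that activates CDK1 (30 before), HMMR, a spindle and hyaluronan-binding protein (28 before), the chromosome-bound motor KIF4A (34 before) and the spindle protein DLGAP5 (3 after):
CDC25C (chr5:138331812-138331851, - strand): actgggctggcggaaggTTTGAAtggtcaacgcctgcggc
HMMR (chr5:163460587-163460626, + strand): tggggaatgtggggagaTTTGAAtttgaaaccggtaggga
KIF4A (chrX:70290053-70290092, + strand): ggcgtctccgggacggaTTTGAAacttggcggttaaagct
DLGAP5 (chr14:55191560-55191599, - strand): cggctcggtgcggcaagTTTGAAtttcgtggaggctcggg
The last is NCAPG, a condensin subunit and a gene that was lower in HaCaT than in TIGK at 0 h (35 before):
NCAPG (chr4:17810927-17810966, + strand): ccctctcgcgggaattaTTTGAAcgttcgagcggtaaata
Of the matched genes, 8 of 10 called higher at 24 h in TIGK and not in HaCaT held the core, and 24 of 31 called higher in both. The windows of the other 10 matched genes, among them CCNB1, CCNA2, KIF20A and AURKB, held neither TTTGAA nor TTCGAA on either strand. No other sequence was searched as a CHR core, so these genes may still carry another form of it. The 24 h responses of the 35 genes with the core had medians of 0.49 (HaCaT) and 0.75 (TIGK) on the log2 scale, and those of the 10 without it 0.42 and 0.65. The log2 fold change of HaCaT over TIGK at 0 h had a median of 0.90 (-0.53 to 1.75) in the 35 genes. In the 10 it was 0.33 (-0.22 to 1.22). A difference between the 2 sets was not tested.

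**Figure D2:**
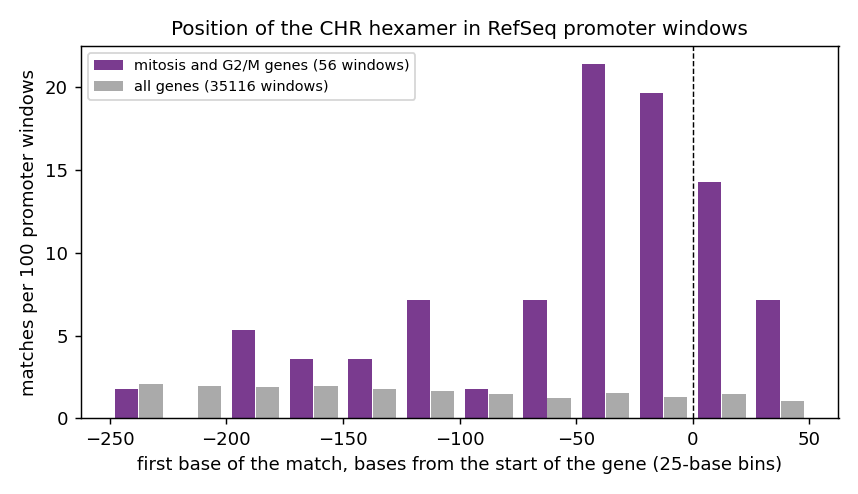
Number of CHR core matches (TTTGAA or TTCGAA, either strand) per 100 RefSeq promoter windows, against the position of the match from the start of the gene in 25-base bins, for the mitosis and G2/M genes (purple, 56 windows) and for all genes (grey, 35116 windows). In the bin 50 to 26 bases before the start there were 21.4 matches per 100 windows in these genes and 1.53 in all genes.

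Before the scratch, HaCaT exceeded TIGK in 46 of the 53 genes, by 1.21-fold to 3.37-fold, at an edgeR false discovery rate under 0.05, which is the threshold for every call here. Among all genes tested 29.3% were called higher in HaCaT and 33.3% lower. The median log2 fold change of the 53 was 0.87, against -0.04 over all genes. NCAPG was the 1 member called lower, and CCNA2, CENPE, NDC80, NUSAP1, PRC1 and ARHGAP11A were not called. In 47 genes every HaCaT library lay above every TIGK library. The share of all genes tested that separated in this way was not computed, so this count describes these genes only.

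FOXM1, the transcription factor of G2/M genes (chr12:2857681-2877155, hg38), had the lowest adjusted p. It stood at 124, 120 and 117 CPM in HaCaT and at 39.5, 41.5 and 50.5 CPM in TIGK. The HaCaT libraries all lay above those of TIGK, and the level was 2.73-fold higher (log2 1.45, SE 0.09, adjusted p = 3.2e-13). PLK1 (chr16:23677656-23690367) stood at 171, 183 and 159 CPM in HaCaT and at 69.5, 79.6 and 79.2 CPM in TIGK, 2.25-fold higher (log2 1.17, SE 0.08, adjusted p = 7.1e-12). HMMR (chr5:163460203-163491945) had the largest fold of the 53, 51.4, 55.5 and 50.3 CPM against 15.2, 14.1 and 17.2 CPM, 3.37-fold higher (adjusted p = 3.3e-11). ECT2, a gene of cytokinesis, was 2.23-fold higher, CDC25B, a phosphatase that starts CDK1 activation, 1.86-fold, and KIF23, a motor of the central spindle, 2.76-fold (adjusted p = 9.1e-12, 9.2e-12 and 1e-11).

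In every role most genes were higher in HaCaT at 0 h. These were 9 of 10 entry genes, 8 of 8 kinesins, 9 of 11 spindle genes, 10 of 12 centromere and kinetochore genes, 3 of 3 anaphase genes, 3 of 4 cytokinesis genes and 4 of 5 chromosome genes. Cyclin A2 was the entry gene that did not differ beyond the replicate spread: CCNA2 (chr4:121816444-121823933) stood at 65.0, 63.6 and 54.3 CPM in HaCaT and 56.4, 59.1 and 62.4 CPM in TIGK (log2 0.04, SE 0.09, adjusted p = 0.74). Its catalytic partner CDK1 (chr10:60778331-60794852) was 1.57-fold higher, at 98.0, 105 and 83.7 against 64.8, 53.8 and 64.5 CPM (adjusted p = 5.1e-06). The kinase AURKB, the active subunit of the chromosomal passenger complex, was 2.33-fold higher, at 63.9 ± 4.23 against 27.3 ± 3.15 CPM (SD, n = 3; adjusted p = 1.7e-10), and the passenger subunit BIRC5 1.98-fold, at 94.3 ± 7.07 against 47.5 ± 6.98 CPM (adjusted p = 9.6e-09). The Aurora kinase of the spindle poles, AURKA, was 1.22-fold higher, at 80.4 ± 8.66 against 65.9 ± 3.71 CPM (adjusted p = 0.035). Of the 47 genes called at 0 h, 44 kept the call without each library in turn. AURKA and KIF2C lost it without each of letters A and B of either line at 0 h, and PTTG1 without 9 of the libraries, with adjusted p up to 0.28.

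NCAPG, the gene that ran the other way (chr4:17810902-17844862), stood at 30.9, 32.9 and 25.5 CPM in HaCaT and at 40.1, 39.9 and 48.8 CPM in TIGK, 1.45-fold lower (log2 -0.53, SE 0.12, adjusted p = 0.00046). Its libraries did not overlap between the lines. In GENCODE 29, 33.1% of its exonic bases also belong to LCORL on the opposite strand, and the sources used here do not say whether reads were counted by strand. The condensin subunits NCAPD2 and SMC4 were 1.84-fold and 1.69-fold higher in HaCaT (adjusted p = 2.2e-09 and 1.6e-06). Of SMC4, 18.5% of the exonic bases overlap TRIM59.

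At 6 h the median difference was 1.08 on the log2 scale (all genes -0.02). HaCaT exceeded TIGK in 49 of 53 genes, by 1.36-fold to 4.92-fold, with 29.8% of all genes called higher and 32.8% lower. CDC25B (chr20:3786772-3806121) had the lowest adjusted p, at 234, 242 and 226 CPM in HaCaT and 105, 104 and 104 CPM in TIGK, 2.24-fold higher (adjusted p = 8e-14). HMMR was 4.92-fold higher, at 45.0, 50.4 and 44.2 against 9.58, 6.52 and 12.1 CPM, with no overlap (adjusted p = 6.7e-13). FOXM1, PLK1, ECT2 and KIF23 were 2.77-fold, 2.58-fold, 2.60-fold and 3.26-fold higher. Cyclin A2, CCNA2, was called at this time, 1.36-fold higher, at 56.5, 64.8 and 63.7 against 43.7, 44.1 and 47.9 CPM (adjusted p = 0.00023). NCAPG was again the 1 member called lower (log2 -0.29, SE 0.12, adjusted p = 0.043), a call lost without any of 7 libraries (TIGK 6 h A, B and C, HaCaT 6 h A and C, HaCaT 24 h A and C; adjusted p up to 0.20). The other 49 calls held without each library.

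At 24 h fewer genes differed between the lines. HaCaT exceeded TIGK in 37 genes and lay below it in 5, with 28.6% and 33.1% of all genes called higher and lower, and the median log2 fold change was 0.50 (all genes -0.05). The 11 genes not called included cyclin B1, CDC20, TPX2, AURKA, BUB1 and DLGAP5. For 47 of the 53 genes the HaCaT level relative to TIGK was smaller at 24 h than at 0 h. In HaCaT 35 were called higher at all 3 times, and the share of all genes tested called so was not computed. MKI67, whose product coats mitotic chromosomes (chr10:128096659-128126385), kept a large difference, 448, 461 and 442 CPM against 202, 239 and 170 CPM, 2.21-fold (log2 1.14, SE 0.11, adjusted p = 4.9e-09). FOXM1, the cytokinetic scaffold ANLN, ECT2, CDC25B and KIF23 were 2.08-fold, 2.06-fold, 1.89-fold, 1.64-fold and 2.08-fold higher (adjusted p at most 3.2e-09). Of the 42 calls at 24 h 36 held without each library, and that of CENPA was lost without any of 12 of the 18 libraries (adjusted p up to 0.14).

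The 5 genes below TIGK at 24 h were NCAPG (1.86-fold lower), KIF20A, a motor of the central spindle (1.43-fold), CENPE, a kinetochore motor (1.42-fold), PTTG1, which is securin (1.27-fold), and CCNA2 (1.18-fold). KIF20A (chr5:138178719-138187715) stood at 80.4, 79.7 and 79.4 CPM in HaCaT and 112, 126 and 103 CPM in TIGK, a reversal of its order at 0 h, when HaCaT held 59.1, 56.7 and 55.8 CPM and TIGK 39.7, 38.9 and 53.9 CPM (adjusted p = 0.0059 at 0 h and 0.00024 at 24 h). CENPE had adjusted p = 0.0012 and NCAPG 4.5e-07. The calls of PTTG1 (adjusted p = 0.04) and CCNA2 (adjusted p = 0.028) did not hold without single libraries: PTTG1 lost it without TIGK 24 h B or C or HaCaT 24 h A or B (adjusted p up to 0.38), and CCNA2 without TIGK 24 h B or HaCaT 24 h B (up to 0.20), which leaves 3 genes lower. PRC1, which bundles midzone microtubules, gave the largest fold at 24 h, 3.86-fold, on 1 to 24 reads per library over the series: 1.08, 1.16 and 0.913 CPM in HaCaT and 0.0655, 0.261 and 0.479 CPM in TIGK (adjusted p = 0.016, and 0.085 without TIGK 24 h A). In GENCODE 29, 57.6% of its exonic bases are shared with AC068831.7 on the same strand. That gene was counted at 7.82 CPM in HaCaT and 2.79 CPM in TIGK at 24 h (here relative to all counted reads). Reads on the shared bases cannot be told apart, and how they were counted is not given in the sources used here.

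**Figure D3:**
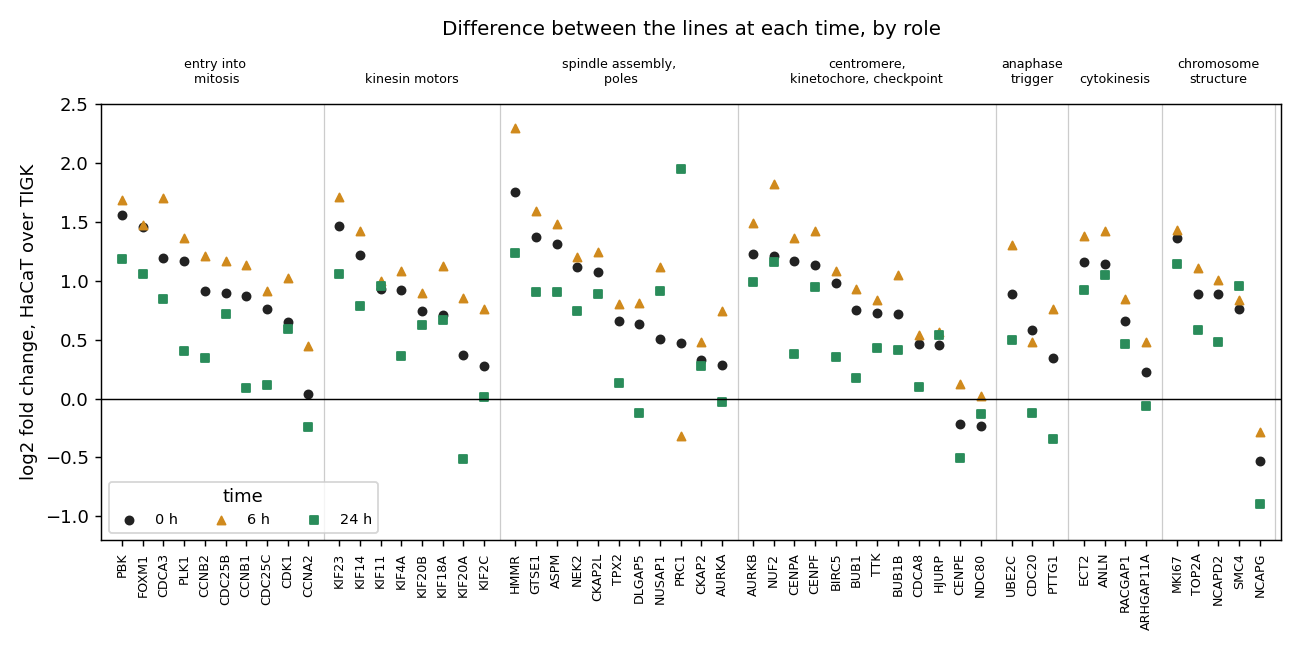
Log2 fold change of HaCaT over TIGK for each of the 53 genes at 0 h (circles), 6 h (triangles) and 24 h (squares), grouped by role and sorted within a role by the 0 h value; 0 is equal level. Most triangles lie above the circles and most squares below them, and 46, 49 and 37 genes were called higher in HaCaT at the 3 times.

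By 6 h after the scratch no member was called in HaCaT. The counts were 0 higher and 0 lower, with 0.138% and 0.0632% of all genes called, and the median log2 fold change was 0.02. In edgeR 1 member had an unadjusted p under 0.05, as did 1315 of all 17409 genes tested. With DESeq2 0 members were called. In TIGK 0 rose and 5 fell, where 2.5% of all genes were called higher and 1.12% lower. The median was -0.21 (all genes -0.02), 50 of the 53 estimates were negative and 24 had an unadjusted p under 0.05 in edgeR. Of all 17409 genes tested, 2499 had such a p in this comparison. The 5 were CDC25B, HMMR, KIF20A, CCNA2 and the microtubule depolymerase KIF2C.

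CDC25B fell from 131, 132 and 138 CPM to 105, 104 and 104 CPM in TIGK, 1.28-fold lower with no overlap (adjusted p = 0.00098), and held the call in every alternative. HMMR fell from 15.2, 14.1 and 17.2 CPM to 9.58, 6.52 and 12.1 CPM, 1.64-fold (adjusted p = 0.0042), a call lost with only the compared groups in the fit (adjusted p = 0.12). KIF20A fell 1.39-fold and CCNA2 1.31-fold (adjusted p = 0.016 each), and both lost the call without TIGK 0 h C, TIGK 6 h A or TIGK 6 h B (adjusted p up to 0.17). KIF2C fell 1.34-fold (adjusted p = 0.04), a call lost without any of 7 libraries (adjusted p up to 0.25). The number of genes that fell was 2 without TIGK 0 h C, TIGK 6 h A or TIGK 6 h B, 10 without TIGK 6 h C and 8 without TIGK 24 h B. With the column letter as a block, 8 fell. TIGK 0 h C and TIGK 6 h C, with their high gene numbers and low mitochondrial shares, held the highest summed mitotic level of their groups, and the part of this in the result was not tested beyond leaving them out.

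The 6 h responses of the lines were not called different for any member (0 higher and 0 lower for HaCaT relative to TIGK, 13 at an unadjusted p under 0.05 in edgeR, 0 with DESeq2). Among all genes 0.218% and 0.534% were called, and 1814 of the 17409 tested had an unadjusted p under 0.05 in edgeR. The median of the difference was 0.22 on the log2 scale, and 3 members were called higher without TIGK 6 h C. The comparisons of 6 h and of 24 h with 0 h share the 0 h libraries, and those of 24 h with 6 h share the 6 h libraries, so they are not independent of each other.

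By 24 h most of the mitotic genes had risen in both lines. In HaCaT 39 of 53 rose and 1 fell against 0 h, where 15.5% and 15.9% of all genes were called higher and lower, with a median log2 fold change of 0.49 (all genes 0.00). In TIGK 48 rose and 0 fell, where 15.3% and 17% of all genes were called, with a median of 0.76 (all genes -0.01). The 2 TIGK estimates below 0 were those of PRC1 (log2 -0.96, SE 0.70) and ARHGAP11A (log2 -0.02, SE 0.10), and neither was called. The summed fibroblast markers were 391 to 435 CPM in TIGK at 24 h and 237 to 274 CPM at 0 h, and 37.7 to 40.8 against 24.9 to 29.1 CPM in HaCaT. The summed keratinocyte markers were 39186 to 43227 CPM at 24 h and 32807 to 34333 CPM at 0 h in TIGK (6 of 10 genes rose and 0 fell), and 40019 to 43574 against 41769 to 43009 CPM in HaCaT (2 rose and 2 fell). Melanocyte markers summed to 21.0 to 27.7 CPM at 24 h against 13.2 to 15.5 CPM at 0 h in TIGK and 8.07 to 9.20 against 4.93 to 5.76 CPM in HaCaT, with TYR at 0 in each of these groups. Endothelial markers summed to 4.99 to 6.86 against 1.62 to 3.63 CPM in TIGK and 6.29 to 8.15 against 2.72 to 3.27 CPM in HaCaT, and immune markers to at most 0.957 CPM in any library. The part of these markers in the result was not tested. Against 6 h, 40 rose and 2 fell in HaCaT (17.6% and 18.1% of all genes; median 0.43; 29 of the 42 calls held without each library), and 49 rose and 0 fell in TIGK (17.8% and 18.9%; median 0.94).

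The condensin subunit NCAPD2 (chr12:6493356-6531955) had the lowest adjusted p in both lines. In HaCaT it stood at 188, 190 and 180 CPM at 0 h and 391, 362 and 372 CPM at 24 h, 2.02-fold higher (log2 1.01, SE 0.08, adjusted p = 1.3e-09). In TIGK it stood at 100, 91.4 and 111 CPM and at 262, 308 and 237 CPM, 2.67-fold higher (log2 1.42, SE 0.09, adjusted p = 9.8e-12). All 24 h libraries lay above all 0 h libraries of the same line. TOP2A, the topoisomerase that untangles sister chromatids (chr17:40388516-40417950), rose from 228, 231 and 218 to 428, 435 and 419 CPM in HaCaT, 1.90-fold (adjusted p = 2.7e-07), and from 118, 106 and 141 to 283, 334 and 240 CPM in TIGK, 2.34-fold (adjusted p = 4.2e-09).

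Among entry genes, cyclin B2 rose in both lines. CCNB2 (chr15:59105078-59125045) stood at 45.4, 50.1 and 42.2 CPM in HaCaT at 0 h and 82.2, 78.0 and 83.7 CPM at 24 h, 1.77-fold (adjusted p = 5.2e-07), and at 22, 23.2 and 27.5 and then 58.1, 71.7 and 61.8 CPM in TIGK, 2.63-fold (adjusted p = 2.3e-10). CDC25C (chr5:138285265-138338355) had the largest rise in TIGK, 3.81-fold, from 3.20, 3.75 and 4.31 to 11.3, 13.6 and 18.5 CPM (log2 1.93, SE 0.21, adjusted p = 1.1e-07), and rose 2.44-fold in HaCaT, from 6.22, 8.11 and 4.87 to 17, 14.4 and 15.5 CPM (adjusted p = 2e-05). CDK1 rose 1.41-fold in HaCaT to 134 ± 5.93 CPM and 1.46-fold in TIGK to 89.4 ± 13.1 CPM (SD, n = 3; adjusted p = 0.00045 and 0.00016). FOXM1 rose 1.46-fold in HaCaT, to 170, 180 and 176 CPM, and 1.91-fold in TIGK, to 82.4, 92.3 and 77.4 CPM (adjusted p = 1.7e-05 and 1.1e-08). In all, 7 of 10 entry genes rose in HaCaT and 10 of 10 in TIGK.

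Among motors and spindle genes, 7 of 8 kinesins and 7 of 11 spindle genes rose in HaCaT, and 8 of 8 and 9 of 11 in TIGK. HMMR rose 1.96-fold in HaCaT, from 52.4 ± 2.77 to 103 ± 5.36 CPM, and 2.82-fold in TIGK, from 15.5 ± 1.57 to 43.8 ± 4.86 CPM (SD, n = 3; adjusted p = 1.3e-06 and 6.2e-09). KIF20A rose 1.40-fold in HaCaT and 2.56-fold in TIGK (adjusted p = 0.0014 and 1.3e-09), KIF4A 1.78-fold and 2.62-fold (4.1e-06 and 3.1e-09) and DLGAP5 1.64-fold and 2.76-fold (6.4e-05 and 2.5e-09). TPX2, which activates Aurora A on the spindle, rose 1.48-fold in HaCaT, from 162, 178 and 163 to 242, 251 and 251 CPM, and 2.14-fold in TIGK, from 104, 97.7 and 116 to 221, 245 and 214 CPM (adjusted p = 2e-06 and 8.9e-11). NUSAP1 had the largest rise in HaCaT, 3.02-fold, from 3.97, 4.83 and 3.49 to 14.1, 11 and 12.1 CPM (adjusted p = 1.4e-05). In GENCODE 29, 62.2% of its exonic bases are shared with AC087721.2 on the same strand, which had 0 reads in every library. NUSAP1 itself had 35 to 222 reads per library, and the part of the shared bases in its level was not tested. AURKA was not called in either line, at 80.4 ± 8.66 and 79.4 ± 9.09 CPM at 0 h and 24 h in HaCaT and 65.9 ± 3.71 and 81.1 ± 12 CPM in TIGK (adjusted p = 0.94 and 0.052).

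At the centromere and kinetochore, 8 of 12 genes rose in HaCaT and 11 of 12 in TIGK. CENPF, a large kinetochore protein (chr1:214603195-214664588), rose from 139, 131 and 148 to 206, 232 and 201 CPM in HaCaT, 1.53-fold, and from 60.8, 54.6 and 74.3 to 107, 124 and 101 CPM in TIGK, 1.74-fold (adjusted p = 3.5e-05 and 1.4e-06). AURKB rose 1.34-fold in HaCaT and 1.58-fold in TIGK (adjusted p = 0.0017 and 2.1e-05). HJURP, the chaperone that loads CENPA, was called in neither line, at 47.5 ± 1.95 and 52.2 ± 1.13 CPM in HaCaT and 34.6 ± 6.07 and 35.9 ± 1.33 CPM in TIGK (adjusted p = 0.38 and 0.77).

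Of the anaphase, cytokinesis and chromosome genes, 2 of 3, 3 of 4 and 5 of 5 rose in HaCaT, and 3 of 3, 3 of 4 and 4 of 5 in TIGK. ANLN rose 1.80-fold in HaCaT, from 235 ± 11.4 to 424 ± 15 CPM, and 1.92-fold in TIGK, from 107 ± 5.88 to 206 ± 33.0 CPM (SD, n = 3; adjusted p = 6.1e-08 and 1.8e-08). UBE2C, the ubiquitin enzyme of the anaphase-promoting complex, rose 1.48-fold and 1.94-fold (adjusted p = 4.6e-05 and 3.9e-08). MKI67 rose 1.24-fold in HaCaT and 1.44-fold in TIGK (adjusted p = 0.04 and 0.00089), and the HaCaT call was lost without any of 8 libraries, among them each HaCaT library of 0 h and 24 h (adjusted p up to 0.11). ARHGAP11A, listed with the cytokinesis genes (chr15:32615144-32639949), was the 1 member that fell in HaCaT, from 57.9, 59.4 and 63.9 to 47.5, 52.0 and 46.6 CPM, 1.24-fold (adjusted p = 0.026), a call lost without HaCaT 0 h C, HaCaT 24 h A or HaCaT 24 h C (adjusted p up to 0.095). Of the 40 HaCaT calls 33 held without each library, and of the 48 TIGK calls 45 did, the exceptions in TIGK being GTSE1, BUB1B and CDCA8 (each without TIGK 24 h B or TIGK 0 h B, the last 2 also without TIGK 0 h A, adjusted p up to 0.35). Between 6 h and 24 h in HaCaT, ARHGAP11A fell 1.29-fold and CCNB1 1.20-fold (adjusted p = 0.0081 and 0.022), where CCNB1 lost the call without HaCaT 6 h A, HaCaT 6 h B or HaCaT 24 h B (up to 0.16) and ARHGAP11A without HaCaT 6 h C (0.058).

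**Figure D4:**
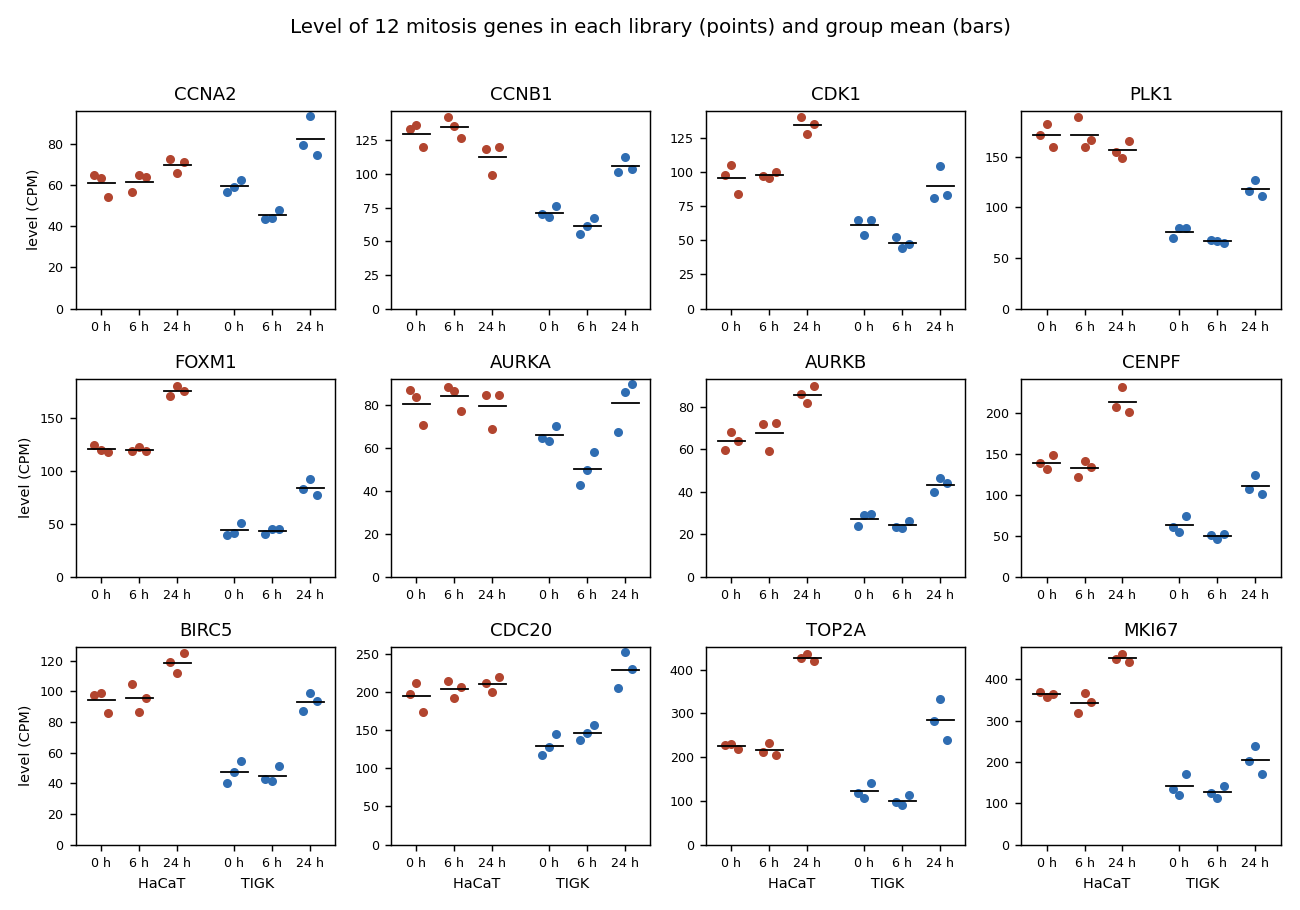
Level in CPM of 12 mitosis genes in every library (points; red HaCaT, blue TIGK) with the group mean (black bar) at 0 h, 6 h and 24 h; each panel has its own axis from 0. CCNB1 and PLK1 do not lie higher at 24 h than at 0 h in HaCaT and do in TIGK, where TOP2A, CENPF and FOXM1 lie higher at 24 h in both lines.

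A smaller HaCaT level relative to TIGK at 24 h than at 0 h is, by arithmetic, a larger 24 h response in TIGK. The 24 h response was thus larger in TIGK for the same 47 of the 53 genes. The difference was called for 14, all lower in HaCaT relative to TIGK, where 7.07% of all genes were called higher and 6.45% lower; the median difference was -0.32 on the log2 scale (all genes -0.01), and 0 were called higher. Across the 53 genes the HaCaT and TIGK responses had a Spearman rank correlation of 0.75 and a Pearson correlation of 0.62, a description across genes measured in the same libraries. Of the 53, 38 rose in both lines, and 10 rose in TIGK and were not called in HaCaT. SMC4 alone rose in HaCaT and was not called in TIGK, ARHGAP11A fell in HaCaT, and AURKA, HJURP and PRC1 were called in neither. The shares of all genes tested with these pairs of calls were not computed, so the counts describe these genes only.

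PLK1 gave the lowest adjusted p of the difference. In HaCaT it stood at 171, 183 and 159 CPM at 0 h and at 154, 149 and 165 CPM at 24 h, which overlap (log2 -0.13, SE 0.08, adjusted p = 0.23). In TIGK it rose from 69.5, 79.6 and 79.2 to 116, 127 and 111 CPM, 1.55-fold with no overlap (log2 0.63, SE 0.08, adjusted p = 1.8e-06). The responses differed by -0.76 on the log2 scale (SE 0.11, adjusted p = 4.8e-05).

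Cyclin B1, the main partner of CDK1 in mitosis, was called in TIGK and not in HaCaT. CCNB1 (chr5:69167010-69178245) stood at 134, 136 and 120 CPM in HaCaT at 0 h and at 119, 99.6 and 120 CPM at 24 h (log2 -0.21, SE 0.09, adjusted p = 0.076). In TIGK it rose from 69.9, 67.8 and 76.1 to 102, 113 and 104 CPM, 1.49-fold (adjusted p = 1.8e-05), and the responses differed by -0.78 (SE 0.12, adjusted p = 9.8e-05). At 24 h the lines no longer differed beyond the replicate spread for it (log2 0.09, SE 0.09, adjusted p = 0.39).

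CDC20 (chr1:43358955-43363203) stood at 197, 212 and 173 CPM in HaCaT at 0 h and 212, 200 and 219 CPM at 24 h (adjusted p = 0.37), and rose in TIGK from 117, 128 and 145 to 205, 252 and 230 CPM, 1.76-fold (adjusted p = 2.2e-07). Its responses differed by -0.70 (SE 0.13, adjusted p = 0.00049). CENPA (chr2:26764289-26801067) stood at 22.7, 26.2 and 23.1 and then 24.2, 22.4 and 21.4 CPM in HaCaT, which overlap, and rose from 8.05, 11 and 12.9 to 16.4, 19.1 and 17 CPM in TIGK, 1.63-fold (adjusted p = 0.0017); the responses differed by -0.79 (SE 0.23, adjusted p = 0.021). These 4 genes are the members of the 14 that rose in TIGK and were not called in HaCaT. The CHR cores of PLK1, CDC20 and CENPA are among the sequences printed above.

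The other 10 of the 14 rose in both lines and by more in TIGK. KIF20A had the largest difference, -0.88 (SE 0.15, adjusted p = 0.0003). The anaphase inhibitor PTTG1 differed by -0.69 and DLGAP5 by -0.75, the passenger subunit BIRC5 by -0.63, the checkpoint kinase BUB1 by -0.58, CCNB2 by -0.57, KIF4A by -0.56, TPX2 by -0.53, NCAPD2 by -0.40 and FOXM1 by -0.39 (adjusted p from 0.0012 to 0.03). By role the 14 were 4 of 10 entry genes, 2 of 8 kinesins, 2 of 11 spindle genes, 3 of 12 centromere and kinetochore genes, 2 of 3 anaphase genes, 0 of 4 cytokinesis genes and 1 of 5 chromosome genes. For the cytokinesis genes the median difference was -0.21, and 0 were called by edgeR.

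Of the 14 differences 9 kept the call without each library in turn and under each alternative. CENPA, KIF4A, NCAPD2, PTTG1 and FOXM1 lost it without 4 to 7 of the 18 libraries, all of them libraries of 0 h or 24 h, with adjusted p up to 0.097. Without TIGK 0 h C and TIGK 6 h C together the count was 22, and without HaCaT 0 h B it was 9. A difference that was not called does not show that a gene responded alike in the lines: for MKI67 the difference was -0.22 with an SE of 0.16, and for CCNA2 -0.28 with an SE of 0.13 (adjusted p = 0.42 and 0.17).

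**Figure D5:**
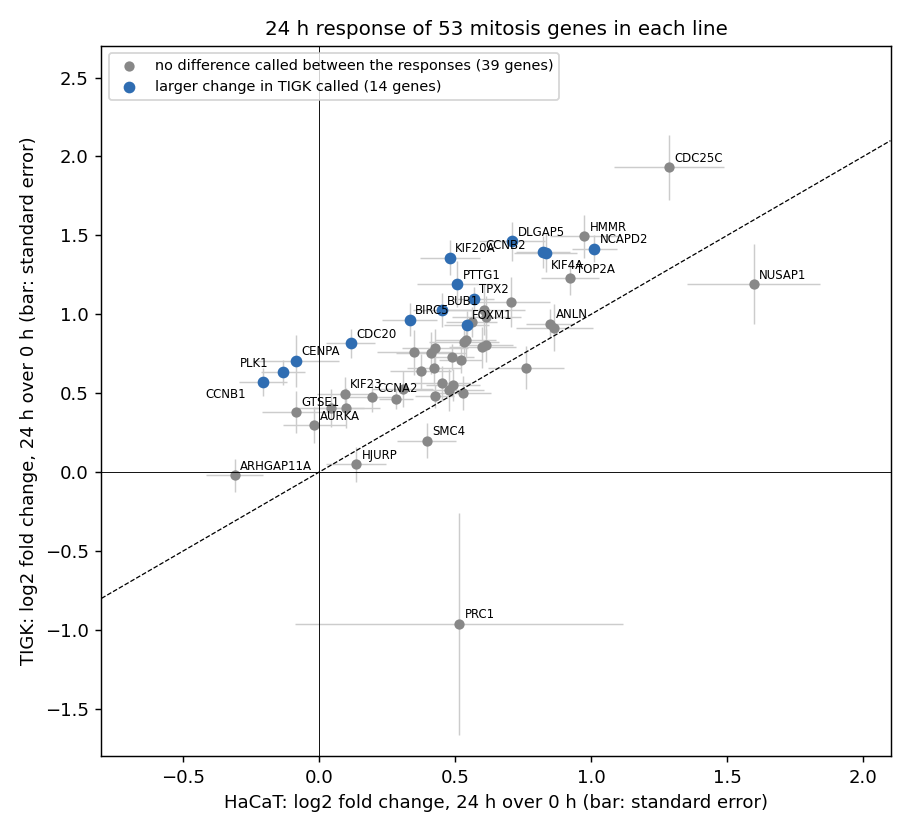
Log2 fold change from 0 h to 24 h of each of the 53 genes in HaCaT (horizontal) and TIGK (vertical), with standard errors; the dashed line marks equal response and blue points are the 14 genes whose responses were called different. All 14 lie above the dashed line, and PLK1, CCNB1 and CENPA lie left of 0 in HaCaT and above 0 in TIGK.

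Other genes of cell division did not all follow. A list of 50 further mitosis genes leaned the same way at 0 h and in the rise by 24 h. At 0 h 31 were higher and 7 lower in HaCaT (median log2 0.48), where 29.3% and 33.3% of all genes were called. By 24 h 29 rose and 1 fell in HaCaT (0.38), where 15.5% and 15.9% of all genes were called. In TIGK 27 rose and 3 fell (0.40), where 15.3% and 17% were called. In this list the 24 h responses were called different in 4 genes toward HaCaT and 6 toward TIGK (-0.03), against 7.07% and 6.45% of all genes. Within it CEP55, a midbody protein of abscission, stood at 87.0 ± 8.18 CPM in HaCaT and 27.6 ± 1.43 CPM in TIGK at 0 h, 3.16-fold higher, and SKA1, of the outer kinetochore, at 25.1 ± 1.49 against 6.48 ± 0.93 CPM, 3.85-fold higher (SD, n = 3; adjusted p = 7.7e-13 and 1e-11). The cytokinetic kinase gene CIT rose 2.20-fold in HaCaT and 2.46-fold in TIGK by 24 h (adjusted p = 5.5e-07 and 8.6e-08). NCAPD3, a condensin II subunit, responded more in HaCaT, by 0.73 on the log2 scale (adjusted p = 5.9e-05).

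Genes of DNA replication, the step before mitosis, were mostly lower in HaCaT before the scratch. Of 32 genes of G1/S and DNA replication, 7 were higher and 18 lower in HaCaT at 0 h (median log2 -0.33), and 12 and 12 at 24 h (-0.11). Of all genes, 29.3% were called higher and 33.3% lower at 0 h, and 28.6% and 33.1% at 24 h. The replicative helicase genes MCM4 and MCM5 were 3.10-fold and 3.43-fold lower in HaCaT at 0 h, at 262 ± 7.55 against 813 ± 22.2 CPM and 72.6 ± 8.22 against 249 ± 8.49 CPM, and the uracil glycosylase UNG was 3.20-fold lower (adjusted p = 4.7e-17, 3e-15 and 3e-16). By 24 h, 8 of the 32 rose and 7 fell in HaCaT (median 0.06), where 15.5% and 15.9% of all genes were called. In TIGK 1 rose and 18 fell (median -0.30), where 15.3% and 17% were called, while 48 of the 53 mitosis genes rose there. In TIGK CDC6, which licenses origins, fell 1.64-fold, from 93.8 ± 0.849 to 57.3 ± 4.37 CPM, and MCM10 2.17-fold, from 23.3 ± 2.48 to 10.7 ± 2.85 CPM (adjusted p = 3.9e-07 and 5.2e-07). The 24 h responses were called different in 12 of the 32, all higher in HaCaT relative to TIGK, with CDC45 (0.91), CHAF1A (0.75) and E2F2 (1.08) at the lowest adjusted p (8.3e-05, 0.0002 and 0.00021). Of all genes, 7.07% were called higher and 6.45% lower in this comparison.

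Among regulators of these genes, 4 of 17 genes for MuvB subunits, MYB, E2F and pocket proteins were higher and 6 lower in HaCaT at 0 h, where 29.3% and 33.3% of all genes were called. By 24 h 7 rose and 2 fell in HaCaT (15.5% and 15.9% of all genes), and 5 rose and 5 fell in TIGK (15.3% and 17%). MYBL2, which encodes B-MYB, rose 1.76-fold in HaCaT, from 109 ± 8.16 to 192 ± 7.74 CPM, and 1.48-fold in TIGK, from 137 ± 16.5 to 203 ± 12.9 CPM (SD, n = 3; adjusted p = 7.9e-08 and 1.6e-05). E2F4, which acts in the repressor form of the complex, fell 1.68-fold and 1.52-fold (adjusted p = 4.1e-09 and 1.5e-07), and RB1 rose 1.72-fold and 1.95-fold (adjusted p = 1.1e-06 and 4.9e-08).

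Genes that brake the cycle rose with the mitotic genes. Of 18 on the list, 13 rose and 1 fell by 24 h in HaCaT (median log2 1.11), where 15.5% and 15.9% of all genes were called. In TIGK 14 rose and 0 fell (0.50), where 15.3% and 17% were called. CDKN1A, which encodes p21, rose 3.60-fold in HaCaT, from 59.6 ± 3.14 to 214 ± 9.43 CPM, and 2.25-fold in TIGK, from 83.7 ± 5.08 to 188 ± 18.7 CPM (SD, n = 3; adjusted p = 1.6e-13 and 3.8e-10). CDKN2B, an inhibitor of CDK4 and CDK6, rose 3.29-fold in TIGK, and GADD45A 3.16-fold in HaCaT (adjusted p = 2.7e-10 and 4.5e-11). The 24 h responses were called different in 7 of the 18, 6 of them higher in HaCaT: GADD45A by 1.45, BTG2 by 0.70 and CDKN1A by 0.68 had the lowest adjusted p (4.6e-07, 0.00019 and 0.00048). Of all genes, 7.07% were called higher and 6.45% lower in this comparison. CDKN2A was 7.09-fold lower in HaCaT at 0 h, at 46.0 ± 4.26 against 326 ± 21.7 CPM (adjusted p = 6.5e-18).

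Of 15 genes for subunits of the anaphase-promoting complex and its activator FZR1, 0 rose and 3 fell by 24 h in HaCaT (15.5% and 15.9% of all genes) and 3 rose and 3 fell in TIGK (15.3% and 17%), with medians of -0.07 and 0.12. FZR1 was 2.06-fold higher in HaCaT at 0 h (adjusted p = 2.7e-10). ANAPC7 fell 1.47-fold in HaCaT and 1.31-fold in TIGK (adjusted p = 0.0001 and 0.0024). Of 7 genes for G1 cyclins and their kinases, 0 were higher and 4 lower in HaCaT at each time. Over these times 28.6% to 29.8% of all genes were called higher and 32.8% to 33.3% lower. CCND1, cyclin D1, fell 2.03-fold in HaCaT, from 612 ± 22.1 to 302 ± 18.5 CPM, and 2.01-fold in TIGK, from 992 ± 7.44 to 494 ± 50.1 CPM (SD, n = 3; adjusted p = 1.1e-10 and 1.9e-10).

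Per length, on the deposited FPKM scale, the 53 genes spanned a wide range of level. Over the 18 libraries CDC20 had the highest mean, 89.9 FPKM (56.5 to 122), followed by UBE2C at 54.8, CDC25B at 46.2, TPX2 at 46.0 and CCNB1 at 39.6 FPKM, where the ranges of neighbours overlap. MKI67, the usual proliferation marker, stood at 20.9 FPKM, at rank 16. CENPE at 3.24, CDC25C at 2.42, NUSAP1 at 1.95 and PRC1 at 0.113 FPKM were lowest. In GENCODE 29, 24 of the 53 genes share exonic bases with another gene, of which 2 (PRC1 and NUSAP1) share most of them, 6 share 10% to 50% and 16 under 10%. The part of these shared bases in the FPKM levels was not tested.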

How the data were processed

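RNA of 2 keratinocyte lines was sequenced at 3 times, with 3 libraries in each of 6 groups. Per the submitters' processing notes the build was hg38, the tools named are featureCounts 1.5.0-p3, HISAT2 2.0.5 and StringTie 1.3.3b, with no role given, and whether strand was used is not given in the sources used here. The deposited values are whole-number read counts per gene, with no normalization, and FPKM values (fragments scaled by gene length and library size) that the authors made from them. Per the labels, RNA was taken with Trizol and cleaned with a kit, and a company made the libraries. Nothing in the labels says that the libraries of a group came from separate cultures, so each p-value rests on a spread that may be only technical.

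Counts were fitted with edgeR 4.0.16 in R 4.3.3 (low-count filter filterByExpr, TMM scaling, 6 group means, 12 residual degrees of freedom, quasi-likelihood test). The p-values were adjusted by Benjamini-Hochberg over all 17409 genes tested, and a gene was called at an adjusted p under 0.05. CPM is scaled by the TMM library size, the SE is the log2 fold change over the root of the F statistic, and the deposited FPKM served to compare levels between genes. The script was tested on simulated data. DESeq2 1.42.0, limma 3.58.1 on the deposited log2(FPKM + 1) and log2(FPKM + 0.1), other scalings, filters and fits, and leaving out each library were the alternatives.

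The 53 genes, their roles and the other gene lists were chosen with earlier results of these data known. Levels were named for 12 chosen genes. Folds were named for up to 6 called members with the lowest adjusted p in a comparison, those with the largest fold, every called member of a direction that held 5 or fewer, and up to 3 called genes of each other list. The genes CENPF, AURKB, HJURP, SMC4 and others outside that rule were chosen after their values were seen. Columns carry letters that the labels do not tie to replicate numbers. Same-letter TIGK libraries of 0 h and 6 h deviated together, each above 0.1 (correlations 0.175, 0.156 and 0.506). The reported fit nevertheless held no letter term and did not use this pairing. A block by letter within each line was among the alternatives. TIGK 0 h A with 6 h B and 0 h B with 6 h A reached 0.129 and 0.123, so only letter C stood apart. In the other pairs of times no same-letter pair passed 0.1.
Same-group libraries differed by more than sampling noise (chi-square per degree of freedom 3.28 to 16.4), so each counted as 1 replicate.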

Additional observations from a re-analysis of the deposited data

Results flagged for a closer look

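For 14 of the 53 mitosis and G2/M genes the change from 0 h to 24 h differed between the lines by the interaction term of the edgeR fit, each with a smaller change in HaCaT than in TIGK. The differences are on the log2 scale, HaCaT minus TIGK, from 3 libraries per group. They were -0.76 for PLK1 (adjusted p = 4.8e-05), -0.78 for CCNB1 (9.8e-05), -0.88 for KIF20A (0.0003), -0.70 for CDC20 (0.00049) and -0.53 for TPX2 (0.0012). They were -0.63 for BIRC5 (0.0036), -0.75 for DLGAP5 (0.004), -0.57 for CCNB2 (0.0074), -0.58 for BUB1 (0.011) and -0.79 for CENPA (0.021). The last 4 were -0.40 for NCAPD2 (0.023), -0.56 for KIF4A (0.025), -0.69 for PTTG1 (0.026) and -0.39 for FOXM1 (0.03). All 14 share the same 0 h and 24 h libraries.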

How the results depend on the processing

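Each count of called members was recomputed under 11 alternatives and without each of the 18 libraries in turn. Of these counts 596 stayed within 1.5 times the reported value and 42 did not, and no count or called member changed direction. The median log2 fold change of the HaCaT response at 6 h, 0.02 as reported, was -0.04 without HaCaT 0 h C. All 42 are counts of the smaller direction, of the 6 h responses or of the difference between the 24 h responses. Of the recomputed medians, 310 moved by less than 0.096, the pooled SD of the library medians, and 9 by more. The TIGK 24 h median, 0.76 as reported, was 0.87 without TIGK 0 h C and 0.66 without TIGK 24 h B. For the difference between the 24 h responses it was -0.43 without TIGK 0 h C (-0.32 as reported). Of the repeated member calls 9571 were kept and 202 lost.

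The number of members that fell in TIGK by 6 h, 5 as reported, was 8 with DESeq2, 10 with library totals, 11 without the low-count filter, 2 with only the compared groups and 8 with the replicate block by column letter; it ranged from 2 to 10 without 1 library. The number that fell in HaCaT by 24 h, 1 as reported, was 0 with upper-quartile scaling, library totals and either limma fit, and 2 with only the compared groups and without TIGK 0 h C and 6 h C; the range without 1 library was 0 to 1. Between 6 h and 24 h in HaCaT, 2 as reported, it was 1 with upper-quartile scaling and with library totals (1 to 2 without 1 library). Members lower in HaCaT at 6 h, 1 as reported, numbered 0 with library totals and without the TIGK C libraries (0 to 1), and those lower at 24 h, 5 as reported, 3 with library totals and with only the compared groups (3 to 5). The 24 h responses differed for 14 members as reported, 9 with library totals and 22 without the TIGK C libraries (9 to 20). The 6 h responses differed for 0 as reported and 1 without the low-count filter (0 to 3). The cause of these changes was not tested. The replicate block moved no other count by over 1.5 times. PRC1 had the fewest reads, 1 to 24 per library, and 57.6% of its exonic bases are shared with AC068831.7 on the same strand.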
